A study of Mus musculus with 8 samples.

Results

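The accessible chromatin at the genes of 2 transcription factor families was examined in FAIRE-seq peak lists: nuclear factor I (NFI; *Nfia*, *Nfib*, *Nfic* and *Nfix*) and CCAAT/enhancer binding proteins (C/EBP; *Cebpa*, *Cebpb*, *Cebpd* and *Cebpg*). A locus was the gene span in GENCODE vM21 with 20 kb on each side, and every peak that overlapped it by at least 1 bp was taken. These 8 of 21951 protein-coding loci held 160 of the 129466 peaks in the 8 lists. The peaks of all lists merged into 37230 regions, of which 42 lay at the 8 loci.

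FAIRE-seq, in which DNA that is not crosslinked to protein is isolated and sequenced, had been performed on EpH4 cells, a mouse mammary gland epithelial line, and on EpRas cells, derived from them by transformation with an active H-Ras. Cells had received TGF-β3 at 1 ng/ml for 8 days or no TGF-β, with 2 replicate libraries in each of the 4 groups. EpH4 cells had been grown in 10% and EpRas cells in 4% serum, so line, Ras and serum cannot be told apart. Whether either line is a single clone was not given in the sources used here.

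NFI proteins bind as dimers to a palindrome whose arms read TTGGC and GCCAA, and C/EBP proteins bind as leucine zipper dimers to sites such as TTGCGCAA. Both families act in the mammary gland: NFI-B and NFI-C act on milk protein genes, and C/EBPβ is required for the growth and differentiation of the gland. C/EBPα drives differentiation in fat and myeloid cells, C/EBPδ is induced in the acute phase and in the involuting mammary gland, and C/EBPγ lacks an activation domain and acts through its dimer partners.

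The lists held 10821 to 27337 peaks, with 27337 in EpRas TGF-β replicate 1 and 10821 in EpH4 TGF-β replicate 2. They hold no read counts, so the depth behind a call is unknown and a region that is not listed may still be accessible. EpRas lists averaged 18791 and EpH4 lists 13576 peaks, a ratio of 1.38. As a check of the labelled cell type, the promoter of *Krt8*, a keratin of simple epithelia, was called in 5 of 8 libraries. The promoter of *Cdh1* (E-cadherin) was called in 4 EpH4 and 0 EpRas libraries, that of *Epcam* in 0, and those of 5 blood and endothelial markers in 0. The promoters of *Krt18*, *Esrp1* and *Cldn7* were called in 3, 2 and 1 libraries, so 0 of 6 epithelial marker promoters were called in all 8. Of 6 mesenchymal marker promoters, that of *Fn1* was called in 7. Those of *Col1a1*, *Vim*, *Zeb1*, *Cdh2* and *Twist1* were called in 2, 1, 1, 0 and 0. These calls do not establish the cell type.

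Of the 8 loci, *Nfib* was the longest (456 kb), held the most peaks and was the only one at which the lines did not overlap. It held 3.29 regions per 100 kb, and 62.6% of protein-coding loci had that density or less. The numbers in this paragraph are given in the order EpH4 untreated 1 and 2, EpH4 TGF-β 1 and 2, EpRas untreated 1 and 2, EpRas TGF-β 1 and 2. At *Nfib* the lists held 5, 3, 6, 4, 10, 9, 13 and 10 peaks. Every EpRas library lay above every EpH4 library, at 10.5 ± 1.73 against 4.5 ± 1.29 (SD, n = 4 libraries each), a ratio of 2.33. The two-sided exact permutation test gave p = 0.0286, the smallest p that 4 against 4 libraries allow, and an adjusted p of 0.593 over the 15756 protein-coding loci with a peak. No locus of the genome passed 0.05 after adjustment, and 759 loci had an unadjusted p under 0.05. A locus was therefore called when the groups did not overlap: 4.27% of the 15756 loci had more peaks in every EpRas library, 0.552% had fewer, and on chromosome 4, where *Nfib* lies, 6.68% of 1003 loci had more. The difference of 6 peaks at *Nfib* ranked 12 among these loci, in a tie of 3 loci that includes *Nfib*. Differences were not scaled by locus length.

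**Figure D1:**
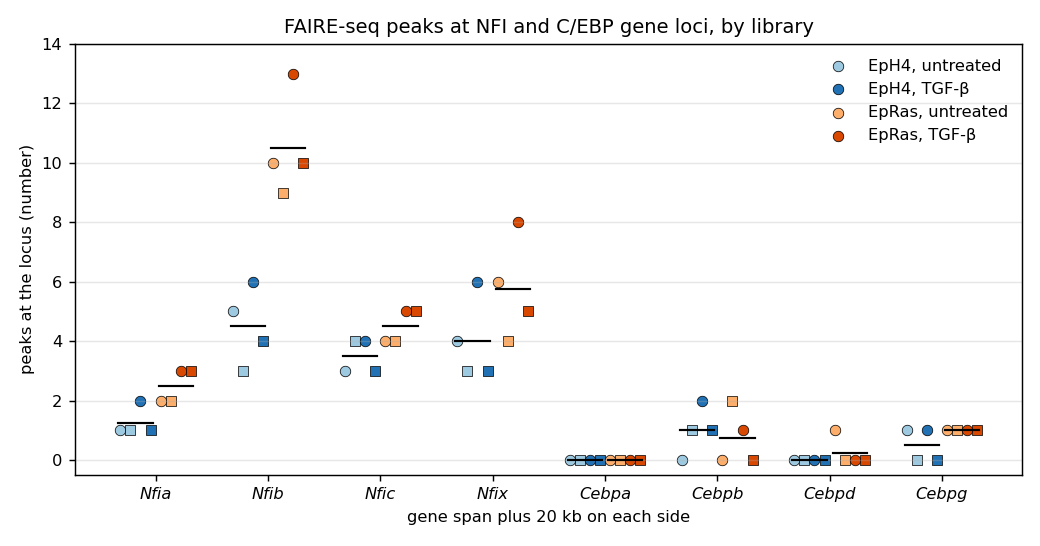
Number of peaks at each locus (y axis) for the 8 genes (x axis), 1 point per library (circles, replicate 1; squares, replicate 2), with black bars at the mean of the 4 libraries of each line. At *Nfib* the 4 EpRas libraries (9 to 13 peaks) lie above the 4 EpH4 libraries (3 to 6); at the other 7 loci the lines overlap or touch.

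The other NFI loci had fewer peaks, and their lines touched or overlapped. In the same order of libraries, *Nfia* had 1, 1, 2, 1, 2, 2, 3 and 3 peaks. Its means were 1.25 ± 0.5 in EpH4 and 2.5 ± 0.577 in EpRas cells (exact permutation p = 0.0857, adjusted p = 0.785). The single point of contact was EpH4 TGF-β replicate 1, the longest EpH4 list, and without that library the lines did not overlap at *Nfia* either. *Nfic* had 3, 4, 4, 3, 4, 4, 5 and 5 peaks (exact p = 0.171, n = 4 against 4). *Nfix* had 4, 3, 6, 3, 6, 4, 8 and 5 peaks (exact p = 0.257, n = 4 against 4). At *Nfix* the 3 highest values belonged to the 3 longest lists, and per 10000 peaks of a list the means were 2.91 ± 0.477 and 3.07 ± 0.278.

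The C/EBP loci, which are short, were nearly devoid of calls. *Cebpa* had 0 peaks in all 8 libraries, as did 6195 of the 21951 protein-coding loci (28.2%) and 45.4% of the 4154 loci of genes of at most 5 kb. *Cebpb* had 0, 1, 2, 1, 0, 2, 1 and 0 peaks, all of them in its flanks. The lines overlapped fully there (exact p = 1, n = 4 against 4). *Cebpd* had 1 peak, in EpRas untreated replicate 1, and *Cebpg* had 1, 0, 1, 0, 1, 1, 1 and 1 (exact p = 0.429, n = 4 against 4). Together, the 4 C/EBP loci (178 kb) held 14 and the 4 NFI loci (1082 kb) 146 of the 160 peaks. A merged region counts once, however many libraries call it. In such regions they held 3.37 and 3.33 per 100 kb of locus, against a median of 2.14 over all protein-coding loci. Of the 6 C/EBP regions, 4 lay in the flanks of *Cebpb*.

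The *Nfib* difference was next read against the length of the lists and against its surroundings. In lists cut to the 10821 highest-scored peaks, EpH4 libraries held 5, 3, 4 and 4 and EpRas libraries 8, 7, 6 and 6 peaks at *Nfib*, and the lines still did not overlap (exact p = 0.0286, n = 4 against 4). Per 10000 peaks of a list, the means were 3.34 ± 0.748 and 5.76 ± 0.739, again without overlap. Chromosome 4 as a whole took a larger share of EpRas lists, 6.92% ± 0.222 against 5.71% ± 0.453 of peaks (exact p = 0.0286, n = 4 against 4). Per 1000 peaks on chromosome 4, the *Nfib* means were 5.9 ± 1.59 and 8.31 ± 0.836, and the lines overlapped (exact p = 0.0571, n = 4 against 4).

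The 5 Mb on each side of *Nfib*, with the locus left out, held 36 to 58 peaks in EpH4 and 60 to 112 in EpRas libraries, a ratio of 1.9. Per 100 peaks of these neighbourhoods, *Nfib* had 13.2, 7.32, 10.3 and 11.1 peaks in EpH4 and 13.5, 15, 11.6 and 12.2 in EpRas libraries (exact p = 0.114, n = 4 against 4). The excess at *Nfib* was thus shared in part by the megabases around it. Whether the copy number of this stretch differs between the lines was not tested. The neighbourhoods of *Cebpa* and *Cebpg* on chromosome 7 are nearly the same stretch, since the genes lie close together. This stretch also held more peaks in every EpRas library (ratios 1.84 and 1.83), while *Cebpa* itself had none. The share of such neighbourhoods over the genome was not computed.

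**Figure D2:**
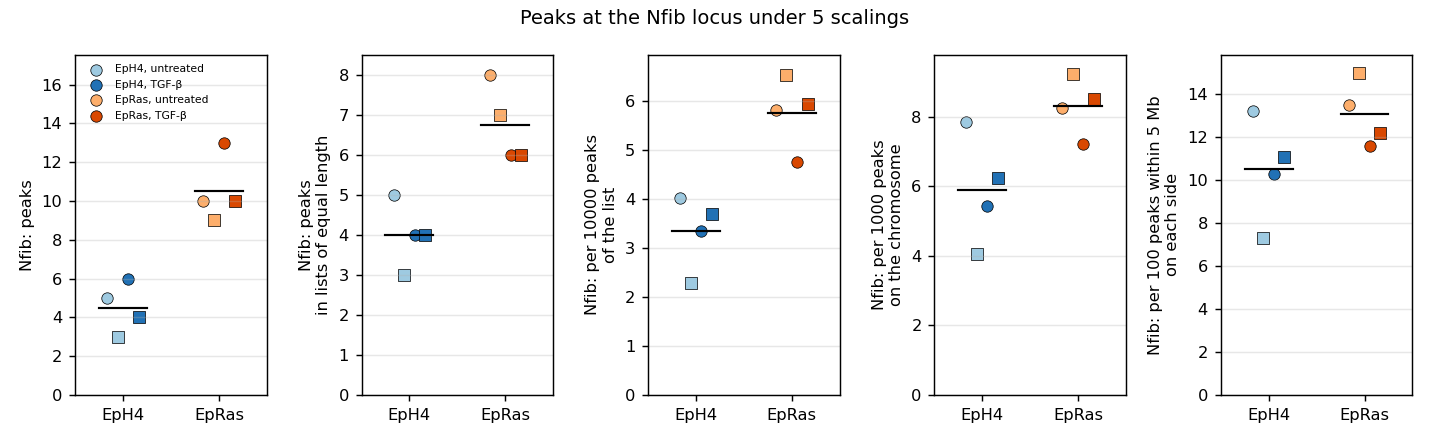
Peaks at the *Nfib* locus by library (points; circles, replicate 1; squares, replicate 2) and line (x axis) under 5 scalings (y axes, each from 0), with bars at the mean of 4 libraries. The lines are apart in the first 3 panels and overlap when the number is taken per 1000 peaks on chromosome 4 or per 100 peaks in the surrounding megabases.

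No member was called by treatment. At *Nfib* the means were 6.75 ± 3.3 in untreated and 8.25 ± 4.03 in TGF-β libraries (n = 4 each, exact permutation p = 0.6), and at *Nfix* 4.25 ± 1.26 and 5.5 ± 2.08 (exact p = 0.429, n = 4 each). The *Nfix* difference of 1.25 peaks fell to 0.417 when EpRas TGF-β replicate 1 was dropped, and dropping EpH4 TGF-β replicate 2 gave 2.08. Of the 15756 loci, 0.394% had more peaks in every TGF-β library and 0.0444% had fewer, and 69 had an unadjusted p under 0.05. In lists of equal length the TGF-β differences at all 4 NFI loci turned negative, from -0.25 at *Nfic* to -0.75 at *Nfib* and *Nfix*. The TGF-β effect in EpRas minus that in EpH4 cells ran from -1.5 peaks at *Cebpb* to 1 at *Nfib* and *Nfic*, and the exact permutation p was 0.444 or more, where the smallest this test allows is 0.0556.

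By position, the 42 regions comprised 21 in introns, 8 within 2 kb of a start site of the gene itself, 6 at the promoter of another gene, 5 in the upstream and 2 in the downstream flank. *Nfib* had 15 of them, 14 in introns and 1 at a start site. *Nfix* had 11, *Nfic* 6, *Nfia* 4, *Cebpb* 4, and *Cebpd* and *Cebpg* 1 each. Of these 42 regions, 6 were called in all 8 libraries (14.3%, against 11.4% of all regions), and 10 in a single one (23.8%, against 31.6%). Calls were found in more EpRas than EpH4 libraries at 26 regions (61.9%, against 56.3% of all regions) and in more EpH4 libraries at 5 (11.9%, against 22.6%). At *Nfib* this held for 12 of 15 regions.

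**Figure D3:**
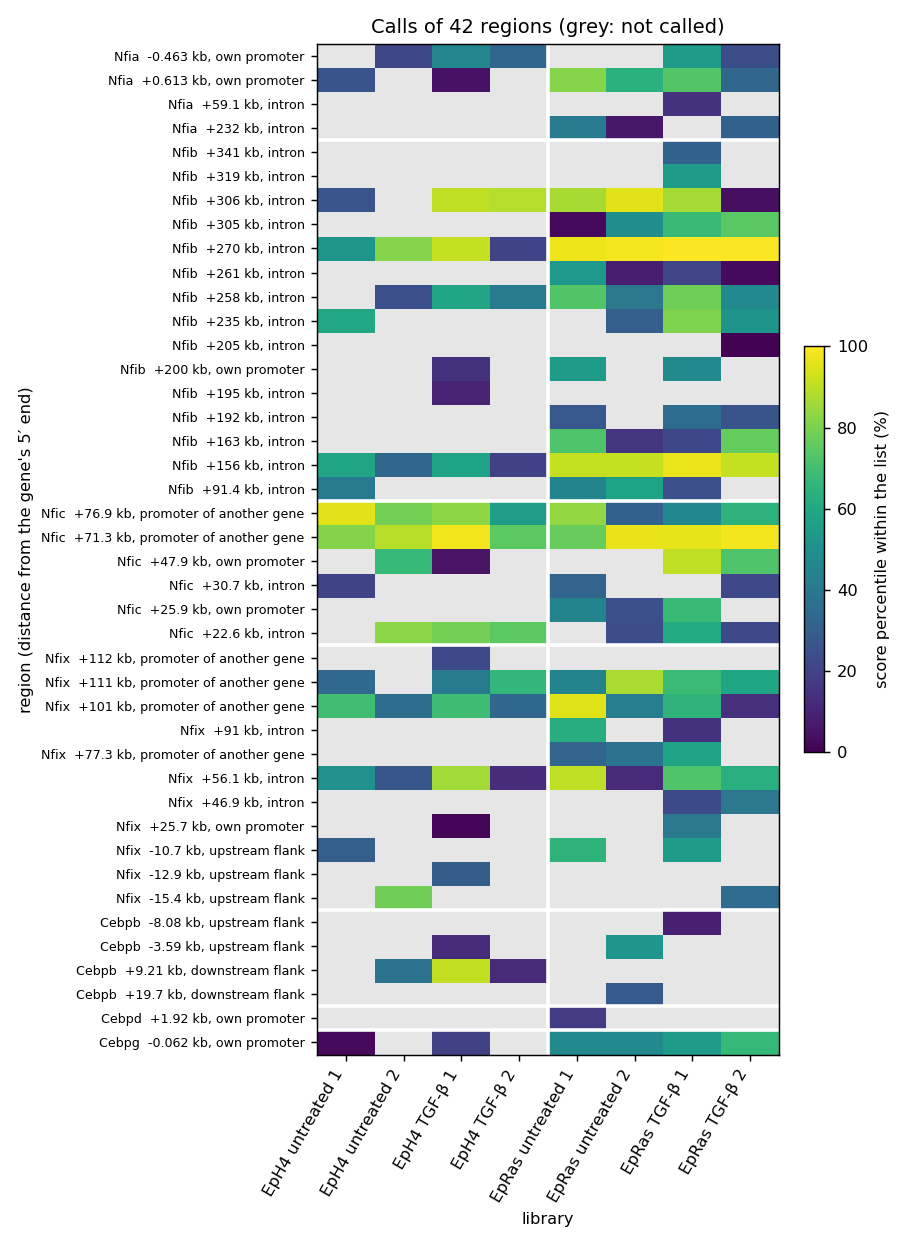
Score percentile within its own list (color) of the 42 regions (rows, with the distance from the annotated 5′ end of the gene) in the 8 libraries (columns); grey marks no call. Of the *Nfib* rows, 3 (+163, +261 and +305 kb) are filled in the 4 EpRas libraries and grey in the 4 EpH4 libraries.

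The score that the authors' peak caller gave has no stated unit, so it was used as a percentile, the share of peaks in the same list with an equal or lower score. In all, 3 regions separated the lines, being called in all 4 libraries of 1 line and 0 of the other. All 3 were EpRas regions in introns of *Nfib*, on the minus strand of chromosome 4 (mm10). They made up 7.14% of the 42 regions, against 1.98% of all 37230 regions and 3.54% of the 2399 on chromosome 4. The reverse pattern, calls in the 4 EpH4 libraries alone, was found at 0 member regions and 0.752% of all regions. In lists of equal length 0 of the 3 kept the pattern, because their peaks included low-ranked ones.

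The sequences of these 3 regions, called in EpRas cells alone, are shown with those of 3 *Nfib* intron regions described next, which were called in 7 or 8 libraries and stand out by score rank or NFI words. Each is the 300 bp around the midpoint of the region, on the plus strand of GRCm38.p6, with capitals for TGAGTCA (AP1), TGTGGTT (RUNX) or TTGGCA (1 arm of an NFI site with the next base), on either strand.
Nfib +305 kb, chr4:82400668-82400967: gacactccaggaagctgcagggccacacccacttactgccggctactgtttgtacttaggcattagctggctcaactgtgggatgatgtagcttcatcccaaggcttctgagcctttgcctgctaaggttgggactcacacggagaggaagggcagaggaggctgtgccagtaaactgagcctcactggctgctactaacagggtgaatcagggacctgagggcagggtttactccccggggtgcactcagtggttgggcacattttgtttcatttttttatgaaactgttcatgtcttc
Nfib +261 kb, chr4:82444117-82444416: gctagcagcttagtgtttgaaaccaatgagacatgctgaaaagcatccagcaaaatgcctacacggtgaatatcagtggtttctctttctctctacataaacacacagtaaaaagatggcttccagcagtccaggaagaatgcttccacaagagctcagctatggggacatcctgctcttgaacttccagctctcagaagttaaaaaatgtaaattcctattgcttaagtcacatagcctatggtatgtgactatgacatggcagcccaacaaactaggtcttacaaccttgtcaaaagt
Nfib +163 kb, chr4:82542164-82542463: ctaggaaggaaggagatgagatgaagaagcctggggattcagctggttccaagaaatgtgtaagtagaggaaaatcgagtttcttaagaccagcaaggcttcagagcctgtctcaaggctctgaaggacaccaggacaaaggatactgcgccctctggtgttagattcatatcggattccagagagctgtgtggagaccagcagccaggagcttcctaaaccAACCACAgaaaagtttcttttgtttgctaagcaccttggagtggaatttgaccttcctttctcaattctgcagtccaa
Nfib +270 kb, chr4:82435885-82436184: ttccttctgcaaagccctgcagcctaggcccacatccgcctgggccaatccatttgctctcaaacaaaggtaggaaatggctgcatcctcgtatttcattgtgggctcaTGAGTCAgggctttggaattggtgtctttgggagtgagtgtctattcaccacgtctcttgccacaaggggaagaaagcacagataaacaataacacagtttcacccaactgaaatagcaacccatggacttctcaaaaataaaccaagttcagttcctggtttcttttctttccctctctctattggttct
Nfib +156 kb, chr4:82549825-82550124: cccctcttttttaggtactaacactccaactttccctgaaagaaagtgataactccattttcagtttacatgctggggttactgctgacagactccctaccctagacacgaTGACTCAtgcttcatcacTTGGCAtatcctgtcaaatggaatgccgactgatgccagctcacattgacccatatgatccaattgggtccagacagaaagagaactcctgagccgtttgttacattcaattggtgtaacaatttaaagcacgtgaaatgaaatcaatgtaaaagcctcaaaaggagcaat
Nfib +306 kb, chr4:82400017-82400316: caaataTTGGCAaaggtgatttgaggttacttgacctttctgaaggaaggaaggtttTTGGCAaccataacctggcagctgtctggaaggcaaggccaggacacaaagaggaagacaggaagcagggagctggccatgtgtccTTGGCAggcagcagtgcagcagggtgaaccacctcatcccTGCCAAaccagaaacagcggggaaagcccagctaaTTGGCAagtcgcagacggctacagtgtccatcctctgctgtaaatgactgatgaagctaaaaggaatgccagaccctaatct

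Distances run from the 5′ end of the longest *Nfib* transcript, along transcription. The other annotated start sites of protein-coding *Nfib* transcripts lie close together 200 kb further in, so that the regions at +156 and +163 kb lie upstream of them. The +305 kb region (chr4:82400654-82400981) ranked at 2.49, 49.1, 67.4 and 74.4% in the EpRas lists, in the order untreated 1 and 2, TGF-β 1 and 2. The +261 kb region (chr4:82444083-82444451) ranked at 53.3, 8.5, 21 and 2.57%. The +163 kb region (chr4:82542182-82542446) ranked at 72.5, 14.9, 21.8 and 76.4%. The ranks spread over most of the scale, and each region fell below 15% in at least 1 EpRas library. Only the +163 kb window held one of the searched words, a RUNX word. A treatment difference was not found at any member region: 0 of 42 were called in the 4 TGF-β or the 4 untreated libraries alone, as were 0.32% and 0.0188% of all regions.

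A pair of *Nfib* intron regions was called in every library and ranked higher in EpRas cells. The +270 kb region (chr4:82435833-82436236) ranked at 53, 81.7, 91.3 and 20.5% in EpH4 and at 97.3, 98.7, 99.3 and 99.3% in EpRas lists. The +156 kb region (chr4:82549816-82550133) ranked at 59.3, 33.2, 58.2 and 19.8% in EpH4 and at 91.1, 91.1, 97.1 and 91.2% in EpRas lists. The lines did not overlap at either region. The percentile of a peak also depends on the length of its list, and EpRas lists were longer on average, but in lists of equal length, with the ranks taken anew, both regions remained apart by line, with differences of 40.3 and 57.7 points. The mean differences were 37 and 50 percentage points (two-sided exact permutation p = 0.0286 for each, n = 4 against 4, adjusted p = 0.357 over the 4259 regions called in all libraries). Of those 4259 regions, 6.57% ranked higher in every EpRas library and 1.43% lower. By treatment, 2.42% ranked higher in every TGF-β library and 0.446% lower, and 0 of the 6 member regions did either. Both windows held an AP1 word, and the +156 kb window held an NFI word 18 bp from its midpoint.

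**Figure D4:**
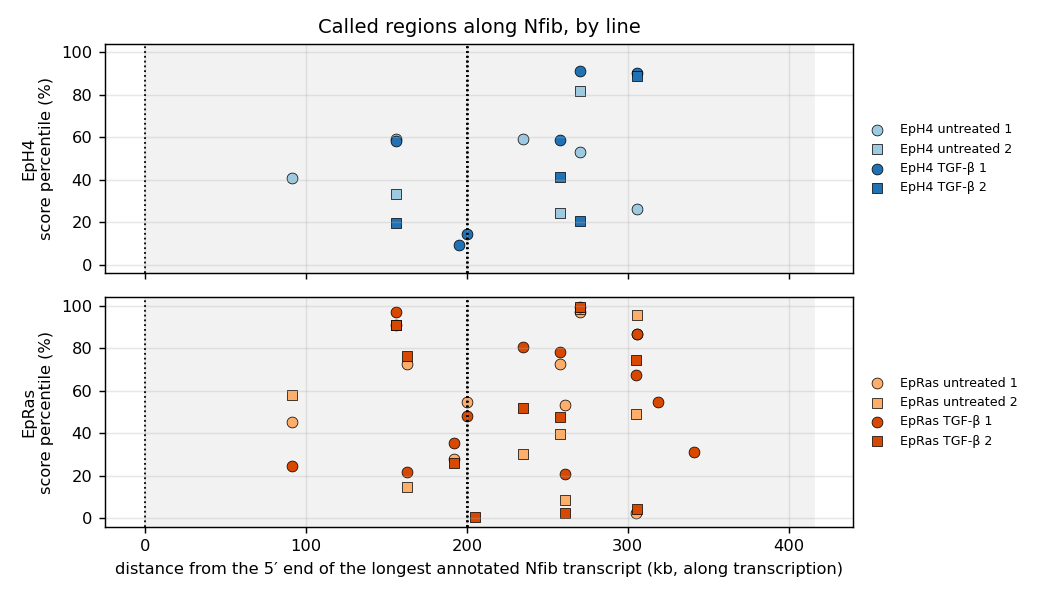
Score percentile (y axis) of each called *Nfib* region against its distance from the 5′ end of the longest transcript (x axis, kb), with EpH4 libraries above and EpRas libraries below (circles, replicate 1; squares, replicate 2). Dotted lines mark annotated start sites and grey the gene; the regions at +156 and +270 kb stand at 91.1% or more in every EpRas library.

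A further region at *Nfib*, at +306 kb (chr4:82399964-82400370), was called in 7 libraries and was the neighbour of the +305 kb region. It ranked at 26.4, 90.3 and 88.7% in EpH4 untreated 1, TGF-β 1 and TGF-β 2 lists, was not called in EpH4 untreated 2, and ranked at 86.8, 95.6, 86.7 and 4.15% in EpRas lists. Its window held 5 NFI words, 4 of them TTGGCA and 1 its complement TGCCAA. Among 37228 regions, 21.3% held at least 1 such word, 0.0269% at least 4, and this was the only one with 5. This count was noticed after the search, and a match is a description of the letters, not of binding.

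Among the 14 *Nfib* regions outside promoters, 5 held the RUNX word (35.7%, against 14.1% of all regions outside promoters), 2 the AP1 word (14.3%, against 44.3%) and 4 the NFI word (28.6%, against 24.5%). Of the 5 with the RUNX word, those at +319, +205 and +195 kb were called in 1 library each, at 54.7, 0.63 and 9.46%. Those at +192 and +163 kb were called in 3 and 4 libraries. The ETS words (CCGGAAG and its variants with A as the first base, the last base or both) were found in 0 of these 14, against 6.13% of all regions outside promoters, and in 1 of the 42 regions (2.38%, against 12.3% of all regions), the promoter of *Dohh* beside *Nfic*. The complete NFI palindrome with 5 bases between its arms, the C/EBP words TTGCGCAA and TTACGCAA, and the word TGACGTCA (CRE) were found in 0 of the 42 regions. TTGGCA can be part of the complete palindrome. The complete words are rare in these windows, at 0.0564%, 0.416% and 1.5% of all regions.

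At the GENCODE start sites, the members ranged from a promoter call in all libraries to none. *Nfia* had a promoter call in all 8, like 11% of protein-coding genes, made up of a pair of regions at -463 and 613 bp from its 5′ end. The upstream one (chr4:97772116-97772425) was called in all 4 TGF-β libraries, at 46, 33.1, 54.7 and 23.9%, and in a single untreated one, EpH4 replicate 2, at 21.5%. With all 8 libraries it did not separate the treatments. When each library was left out in turn, it did so only without EpH4 untreated replicate 2, and no other member region did. The share of all regions that separate the treatments after the same omission was not computed. The downstream one (chr4:97773175-97773518) was called in 4 EpRas libraries, at 82, 64, 73.2 and 33.2%, and in EpH4 untreated 1 and TGF-β 1, at 25.8 and 5.04%. Both also lie within the annotated lncRNA gene *E130114P18Rik*.

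*Cebpg* had a single region, at its start site (chr7:35056464-35056805), which also lies within 2 kb of a start site of *Gm45095*. It was called in 4 EpRas libraries, at 47.3, 47.4, 54.4 and 66.9%, and in 2 EpH4 libraries, at 2.51% in untreated 1 and 19.7% in TGF-β 1. Among the 6 libraries with a call, all EpRas values lay above both EpH4 values. This difference was not tested, and the share of all regions with such a pattern was not computed. *Nfic* had promoter calls in 6 libraries from 2 regions, one (chr10:81407619-81407910) in 2 EpH4 and 2 EpRas libraries at 5.3 to 90.4% and one (chr10:81429577-81429818) in 3 EpRas libraries at 24.5 to 67.2%. The first holds an AP1 word. They lie 47.9 and 25.9 kb from the 5′ end of *Nfic*, near start sites inside the gene. The main *Nfib* start site (chr4:82505670-82505921) was called in 3 libraries, EpH4 TGF-β 1 at 14.7%, EpRas untreated 1 at 54.7% and EpRas TGF-β 1 at 48%. These had the 3 longest lists.

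The remaining promoters had few calls or none. *Nfix* was called at a start site inside the gene (chr8:84774449-84774751, 25.7 kb from its 5′ end) in 2 libraries. These were EpH4 TGF-β 1, at 1.23%, and EpRas TGF-β 1, at 39.9%. *Cebpd* was called in 1 (chr16:15889103-15889302, 17.4%), and *Cebpa* and *Cebpb* in 0, like 56.7% of protein-coding genes. The *Cebpd* region lies in an exon, 1.92 kb downstream of the start site. RefSeq promoters of 300 bp were at hand for 6 of the 8 genes, not for *Nfib* and *Cebpd*. That of *Cebpg* overlapped a peak in 6 libraries, and those of *Nfia*, *Nfic*, *Nfix*, *Cebpa* and *Cebpb* in 0. The RefSeq promoter of *Nfia* (chr4:97581693-97581992) lies upstream of the locus counted here, so it is not the GENCODE start site called in all libraries. The GC content was 80.7% for *Cebpb*, 67.3% for *Cebpa* and 71.7% for *Cebpg*. Of all 32851 RefSeq promoters, 24.8% overlapped a peak in any library. The share was 5.82% below 50% GC, 27.2% from 50 to 60%, 53.2% from 60 to 70%, where *Cebpa* falls, 38.6% from 70 to 80%, where *Cebpg* falls, and 10.5% from 80%, where *Cebpb* falls. The part of base composition in the calls at these promoters was not tested.

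Outside promoters, 1 region of each other locus was taken by its mean percentile over the libraries that called it, so that the regions compared rest on different libraries. At *Nfix* the highest lay in the upstream flank, at -15.4 kb (chr8:84815610-84815850), within the annotated gene *Dand5*. It was called in EpH4 untreated 2 at 78.4% and in EpRas TGF-β 2 at 35%. The *Nfix* intron region at +56.1 kb (chr8:84744035-84744365), called in all libraries, ranked at 50.6, 26.8, 86 and 12.7% in EpH4 and at 90.5, 12.1, 72.5 and 62.6% in EpRas lists. Its window held an NFI word. The *Nfic* intron region at +22.6 kb (chr10:81432911-81433227) was called in 6 libraries, at 74.9 to 82.7% in 3 EpH4 and at 22.1 to 61.1% in 3 EpRas lists. The *Nfia* intron region at +232 kb (chr4:98004139-98004481) was called in 3 EpRas libraries at 6.52 to 41.5%. Downstream of *Cebpb*, at +9.21 kb (chr2:167697976-167698280), a region was called in 3 EpH4 libraries, at 38.1% in untreated 2, 90.8% in TGF-β 1 and 11.8% in TGF-β 2, and in 0 EpRas libraries. It held an AP1 word and lies in the annotated gene *A530013C23Rik*.

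**Figure D5:**
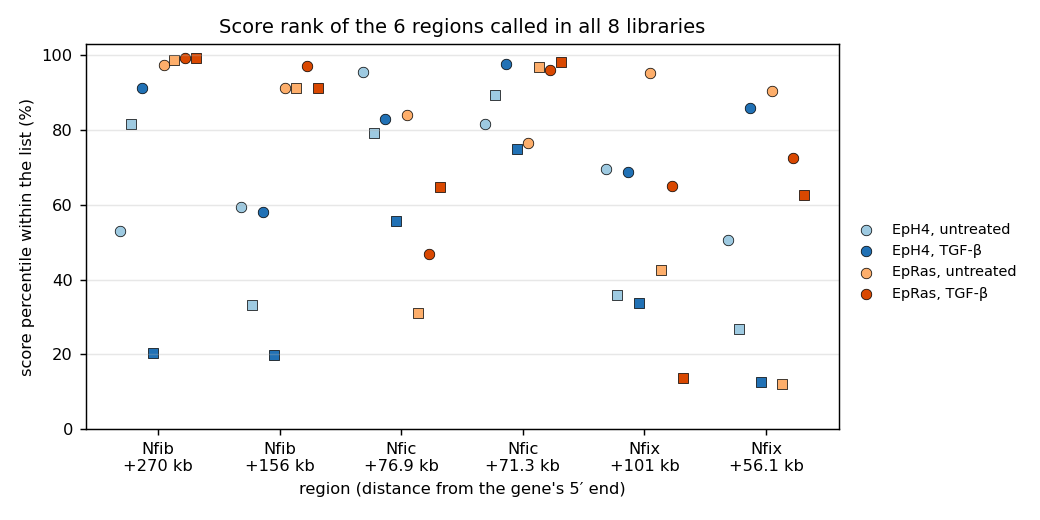
Score percentile (y axis) of the 6 regions called in all 8 libraries (x axis, named by locus and distance from the 5′ end), 1 point per library (circles, replicate 1; squares, replicate 2). The lines are apart at the *Nfib* regions and overlap at the 4 regions of *Nfic* and *Nfix*, of which the first 3 are promoters of neighbouring genes.

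A single member region was called in both libraries of 1 group and no other. It lies in an intron of *Nfix*, at +46.9 kb (chr8:84753265-84753551), and was called in EpRas TGF-β libraries, at 22.3 and 39.6%. Of all regions, 4.21% were called in both EpRas TGF-β libraries alone, 0.451% in both untreated EpRas libraries, 0.86% in both EpH4 TGF-β and 0.424% in both untreated EpH4 libraries. Of the 6 regions at the *Nfic* and *Nfix* loci that belong to other genes, 3 were called in all libraries. These lay at the promoters of *Fzr1* and *Dohh* and at a start site of *Trmt1* (chr8:84698835-84699287). Another region at a *Trmt1* start site (chr8:84689107-84689381) was called in 7 libraries. *Nfic* itself, at 6 regions, had 4 that were not counted to another gene. Of these, its start-site region at chr10:81407619-81407910 also lies within 2 kb of a start site of *Gm16104*.

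Related genes were counted with the same test. Of 6 relatives and dimer partners of the C/EBP proteins, 0 were called in either direction by line or by treatment, and promoter peaks were found in all 8 libraries for 3 (*Ddit3*, *Atf4* and *Atf5*). Of 6 cooperating mammary factors, 0 were called, and *Stat3* alone had a promoter call in all libraries. Of 12 genes known to be regulated by C/EBP or NFI proteins, 1 was called by line, *Lcn2*, which encodes lipocalin 2, beside 4.27% of all loci called higher and 0.552% lower in EpRas cells. It had 0 peaks in each EpH4 library and 2, 1, 3 and 2 in EpRas libraries (exact p = 0.0286, n = 4 against 4, adjusted p = 0.593). Its promoter was called in 0 libraries. Unlike those of *Nfib*, the *Lcn2* counts were not taken per chromosome or per neighbourhood. The median difference between the lines was 0.75, 0 and 0.125 peaks in the 3 lists, against 0.25 over all loci. Of 6 mesenchymal markers, 1 was called, *Cdh2* (N-cadherin), and of 6 epithelial, 5 blood and endothelial and 3 adipocyte markers 0. The median difference between the lines was 1.12 peaks for the mesenchymal, 0 for the epithelial, 0 for the blood and endothelial and 0.25 for the adipocyte markers, and the part of such a shift in the *Nfib* difference was not tested.

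Among loci with at least 50% as many peaks, those with the pattern most like *Nfib* over the 8 libraries were *Rptor*, *Mertk* and *Ptprm*, with Pearson correlations of 0.974, 0.973 and 0.963 among 896 candidates. List length itself gave 0.799. For *Nfix* they were *Adam12*, *Cdk18* and *Car5a*, at 0.979, 0.979 and 0.977 among 2582 candidates, where list length gave 0.949. These are descriptions over 8 libraries, which share the list length.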

How the data were processed

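FAIRE-seq had been performed on 8 libraries (Ion Proton). Per the study's methods and the submitters' processing notes, the authors trimmed reads, aligned them with Bowtie2 (build mm10) and used MACS2 2.0.9 for peaks under a q limit, 1 list per library without pooling. The deposited score has no stated unit, and control input and duplicate handling were not given in the sources used here. From the lists, peaks were counted per locus (GENCODE vM21; start sites of protein-coding transcripts, promoters within 2 kb) and merged into regions at 1 bp of overlap. Libraries were grouped by their labels. Means of 4 against 4 libraries were compared by exact permutation (70 assignments, two-sided), adjusted by Benjamini-Hochberg over all loci or regions tested. The replicates are stated to be biological. Python 3.11.15, numpy 2.4.6, pandas 2.3.3, matplotlib 3.10.9 and samtools 1.23.1 were used. The permutation was tested on simulated data, and the counting against a direct search of the lists. Words were searched in 300 bp around region midpoints in GRCm38.p6, where 0 of 21 chromosomes had a peak beyond their end. The members, lists and tests were chosen with earlier results of these data known. Named were all 8 genes, their start-site regions, regions that separate lines or treatments or belong to both libraries of 1 group, the highest-ranked region outside promoters of each locus, the 3 loci most alike for the 2 members with most peaks, and related genes that were called. Alternatives were equal list length, a score limit, other flanks and overlaps, peaks per list, per chromosome and per 5 Mb neighbourhood, a replicate block, and each library left out; the neighbourhood and the overlap with 50% of the merged region were chosen after seeing the data.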

Additional observations from a re-analysis of the deposited data

Results flagged for a closer look

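Of 24 tests by Dixon's criterion for a value far from the others among the 4 libraries of a line, 4 were positive, where chance gives about 1 in 20. *Nfia* had 2 peaks in EpH4 TGF-β replicate 1 and 1 in each of the other EpH4 libraries. *Cebpd* had 1 peak in EpRas untreated replicate 1 and 0 in the other EpRas libraries. The *Nfib* region at +156 kb ranked at 97.1% in EpRas TGF-β replicate 1, against 91.1 to 91.2% in the other EpRas lists. The *Dohh* promoter beside *Nfic* ranked at 76.6% in EpRas untreated replicate 1, against 96.1 to 98.3% in the others. For small whole numbers such as peak counts, this criterion is met whenever 1 library differs from equal others.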

How the results depend on the processing

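The lists give no depth, so a missing call is not a closed site. The number of loci at which the lines did not overlap was 1 (*Nfib*), fell to 0 with peaks at or above the median score (15.5; *Nfib* difference 4.25, exact permutation p = 0.0571, n = 4 against 4), per 1000 peaks on the chromosome (2.41) and per 100 peaks within 5 Mb (2.6), and ran from 1 to 2 with 1 library left out. With replicate numbers as a block, 0 loci passed, since the smallest p of this replicate block is 0.125. At the 4259 regions called in all libraries, same-numbered libraries did not deviate together (correlations from -0.0188 to 0.0359). Whether replicate numbers pair the peak counts at the loci was not tested. *Nfib* kept its direction in all 17 alternatives and lost the call in 4. The log2 ratio of peaks at the 8 loci together, EpRas to EpH4, was 0.78 (0.47 for whole lists), 0.39 in equal lists, 1.2 at the median score, 0.36 per 10000 peaks, 0.95 with flanks of 10 kb and 0.51 with 50 kb, and 0.66 to 1.00 with 1 library left out. For TGF-β it was 0.29 and reversed to -0.28 in equal lists and -0.0557 per 10000 peaks, and was 0.08 to 0.49 with 1 library left out. Regions separating the lines numbered 3, with 0 in equal lists and 0 at the median score, and 3 to 5 when single libraries were dropped (5 without EpRas TGF-β replicate 2, adding the *Nfic* start site at +25.9 kb and the *Nfix* region at +77.3 kb); those separating treatments numbered 0 to 1. Regions with ranks apart by line numbered 2 of the 6 called in all libraries. At the median score only 1 region was still called in all libraries, and 0 were apart, so the 2 could not both be compared there. When a peak had to cover 50% of the merged region, 4 were called in all libraries and 1 was apart. Reversed line differences were -0.11 per 10000 and -0.227 per 1000 peaks at *Nfic*; at *Cebpb* the line difference ran from -0.667 to 0.0833 when single libraries were dropped, the latter without EpH4 TGF-β replicate 1, and was -0.25 with flanks of 20 kb, -0.5 with 10 kb and -1.5 with 50 kb. Reversed TGF-β differences in equal lists were -0.5 at *Nfia*, -0.75 at *Nfib* and *Nfix*, and -0.25 at *Nfic* and *Cebpb*. Per 10000 peaks they were -0.226 at *Nfib* and -0.221 at *Nfic*, per 1000 peaks -0.505 at *Nfib*, -0.838 at *Nfic* and -0.167 at *Nfix*, and per 100 peaks within 5 Mb -0.732 at *Nfia*, -0.933 at *Nfib*, -0.182 at *Nfic* and -0.0407 at *Cebpb*. When single libraries were dropped, they ran from -0.0833 (without EpH4 TGF-β replicate 1) to 0.667 at *Cebpb* and from -0.0833 (without EpRas TGF-β replicate 1) to 2.92 at *Nfib*. Overlap of 50% of the shorter is met by construction, since each peak lies inside its merged region. The causes were not tested.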
